A study of Saccharomyces cerevisiae BY4741 with 25 samples.

Results

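Insertions and deletions outside coding sequence were described across 9 whole-genome sequencing libraries of budding yeast. A call was included when it had at least 10 reads, when its reference allele or any alternate allele was longer than 1 base, and when none of its annotated effects touched coding or splice sequence. The rule gave 189 distinct calls (distinct by position and alleles) of the 1507 distinct calls with at least 10 reads, a share of 12.5%. They stood at 137 positions and were listed 487 times over the 9 libraries. Joining positions up to 20 bases apart left 123 loci, of which 69 had a call in the parental list. At many loci the libraries list different positions or alleles, called spellings here. Without the reads it was not tested whether spellings of a locus come from the placement of a gap or from different sequences in the strains, and counts of spellings and of calls absent from the parental list carry that doubt.

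The study sought mutations that release repression of SIR2, which encodes a histone deacetylase acting at the ribosomal RNA gene repeats. The mutant libraries were RRC1 (rrn9, strain YTT67_alpha25), RRC2 (rrn10, YTT66_a17), RRC3 (rrn5, YTT66_a19), RRC4 (YTT67_alpha5), RRC5 (uaf30, YTT66_a40), RRC6 (YTT66_a296A), RRC7 (YTT66_a33) and RRC8 (YTT66_a44), and the parental library mixed strains YTT66 and YTT67. All 9 were mixtures of MATa and MAT alpha cells of the BY4741 background, grown in YPD at 30 °C to stationary phase, and the clones of a mutant came from spores of a backcross, were cultured apart and were harvested as 1 pool. Each group was 1 library, so no value has a replicate error, and tests on reads compare libraries and not strains. RRC4 was taken as a mutant pool from its title and strain name, although its longer label mentions YTT66 and YTT67 alone. Noncoding insertions and deletions, all on nuclear chromosomes, numbered 60, 75, 41, 63, 55, 28, 48 and 47 in RRC1 to RRC8, against 70 in the parental list. Median depth over all calls of a library was 47, 51, 25.5, 51, 39, 19, 40 and 39 reads in RRC1 to RRC8 and 37 reads in the parental library.

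Short tandem repeats are the sites of the genome where the number of bases changes most readily, because the new strand can slip on its template during replication and mismatch repair must then remove the loop. The same repeats are hard to read, since polymerases also slip during library amplification and since an aligner may place a gap at any copy of the repeat. In a pool of backcrossed mutant clones, an allele that was fixed in the cross is carried by nearly all reads. An unlinked allele from 1 parent of the cross is expected on about 50% of them.

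The calls fell into 3 kinds by the bases that were gained or lost. Dinucleotide repeats, with at least 3 copies of a pair of bases, gave 90 distinct calls. Homopolymers, runs of at least 4 copies of a single base, gave 60. Short or other sites gave 39. The following alleles show the repeats on which the results turn. Positions and alleles are those of the deposited lists, on the strand the lists use, and the genome build is not given in the sources used here. Capitals mark the bases lost (in the reference allele) or gained (in the alternate allele), placed at the left end of the repeat.
LEU2 upstream, chr3:91287-91303, 2 bases lost: aATatatatatatatat
KOG1 downstream, chr8:475931-475954, 2 bases lost: tTAtatatatatatatatatatat
TSR1 downstream, chr4:344004-344030, 2 bases gained: gTAtatatatatatatatatatatatata
CTF3 and NAM2 downstream, chr12:881947-881969, 2 bases gained: cATatatatatatatatatatatat
YDL241W upstream, chr4:20525-20562, 2 bases lost: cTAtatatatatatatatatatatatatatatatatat
YBT1 and LDB18 downstream, chr12:41223-41262, 2 bases lost: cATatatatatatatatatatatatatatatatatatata
SRB6 and TRS20 downstream, chr2:723663-723678, 1 base gained: cAaaaaaaaaaaaaaaa
between OCA1 and RAS2, chr14:439397-439403, 1 base gained: gTtttttt
The first 4 are AT or TA repeats read at a high share, the next pair are longer AT or TA repeats read at a low share, and the last pair are homopolymers.

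Most changes were small. Of the 189 distinct calls, 172 (91.0%) changed the length by 1 or 2 bases. Taking the first alternate allele of each call, 107 were deletions and 82 were insertions. Losses of 2 bases were the most frequent class (73 calls), followed by gains of 2 bases (40), gains of 1 base (32) and losses of 1 base (27). The remaining 17 calls comprised 9 gains of 4 bases, 4 losses of 4, 2 losses of 5, 1 gain of 3 and 1 loss of 3. Both losses of 5 bases lay downstream of RPS8A, which encodes a protein of the small ribosomal subunit.

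**Figure D1:**
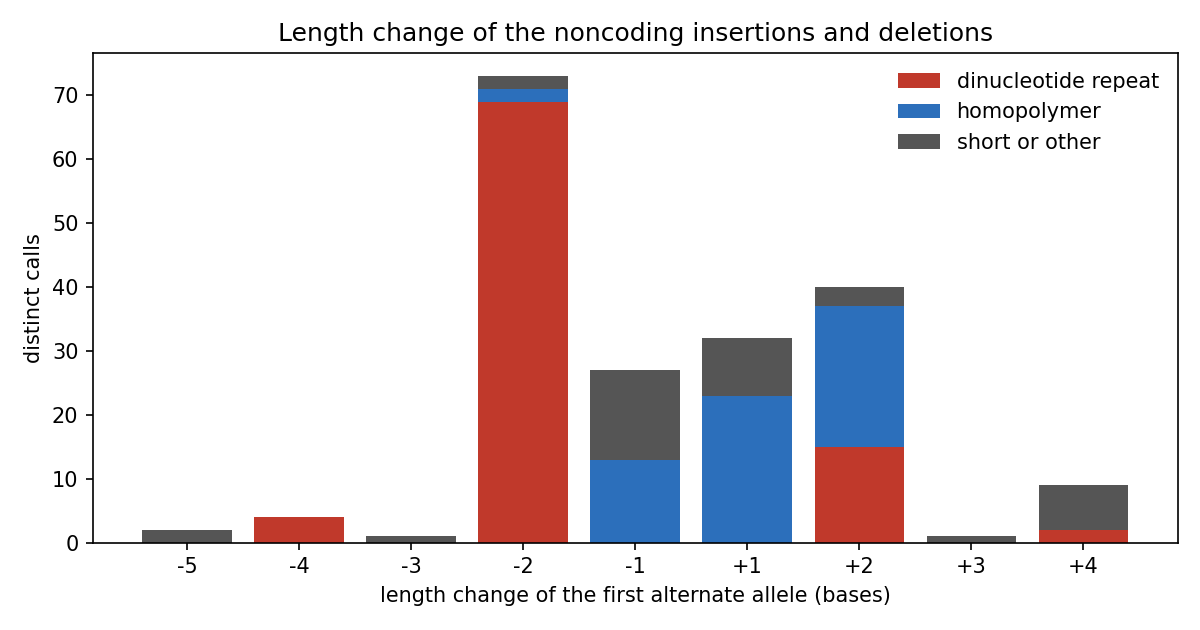
Number of distinct calls (vertical axis) by length change of the first alternate allele in bases (horizontal axis), with bars stacked by kind of site. Dinucleotide repeats supplied 69 of the 73 losses of 2 bases, and homopolymers supplied 23 of the 32 gains of 1 base.

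Direction differed by kind of repeat. At dinucleotide repeats 73 distinct calls were deletions and 17 were insertions, whereas at homopolymers 15 were deletions and 45 were insertions. Of the 23 homopolymer positions, 17 had a gain as the first alternate allele in every spelling, 6 had a loss first in every spelling, and 0 had both as first alternates. Later alternates were not counted, although 43 of the 60 distinct homopolymer calls list several. Some of these hold both directions, such as the parental call at the A tract between YAL067W-A and SEO1, which lists a gain and a loss. Within each library the deletion share of dinucleotide calls exceeded that of homopolymer calls, with at most 88.0% (RRC1) and at least 60% (RRC7) for dinucleotide calls and 16.7 to 35.3% for homopolymer calls. The mean difference was 50.9 ± 12.8 percentage points (SD, n = 9 libraries). No test is given, because the kinds were compared after their values had been seen and the libraries share many of the sites. Over all kinds together, the deletion share averaged 53.8% and exceeded 50% by 3.76 ± 4.98 percentage points (SD, n = 9 libraries, 7 of them above 50%, two-sided exact sign-flip permutation test p = 0.0586). This balance changed with the filter. It was 2.14 points below 50% with a call score of at least 50 (p = 0.25) and 8.66 points above with at least 20 reads (p = 0.0039), both by the same exact test. That test treats the libraries as independent, although they share many of the sites, so its p-values are not a measure over separate sites. The value 0.0039 is the smallest that 9 libraries can give.

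Alternate shares were split into low (40% or less), middle and high (80% or more). Of the 487 calls, 343 (70.4%) were high, 138 (28.3%) were low and 6 (1.23%) were in the middle, and 239 calls were at 100%. Noncoding single-base calls of the same libraries, 488 distinct calls listed 1014 times, were 39.5% high, 42.9% low and 17.6% in the middle. The median share of insertions and deletions was 99, 85, 100, 96, 98, 100, 100 and 100% in RRC1 to RRC8 and 94% in the parental library. For single-base calls it was 56, 49.5, 34, 53, 47, 30.5, 51 and 53% in RRC1 to RRC8 and 98.5% in the parental library. The median was thus higher for insertions and deletions in all 8 mutant pools and lower in the parental library.

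The paired difference of medians averaged 44.4 ± 21.3 percentage points (SD, n = 9 libraries, 8 positive, two-sided exact sign-flip permutation test p = 0.0078). The libraries share many calls and are not fully independent. With a call score of at least 50 the difference was 9.72 points (exact p = 0.0312). Calls with several alternate alleles carry 1 percent for all alternates together. With calls of 1 alternate allele only, the difference was 37.1 points (exact p = 0.0156). The middle range held 1.06% of insertions and deletions per library on average, against 17.6% of single-base calls, and the share was smaller for insertions and deletions in 9 of 9 libraries.

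**Figure D2:**
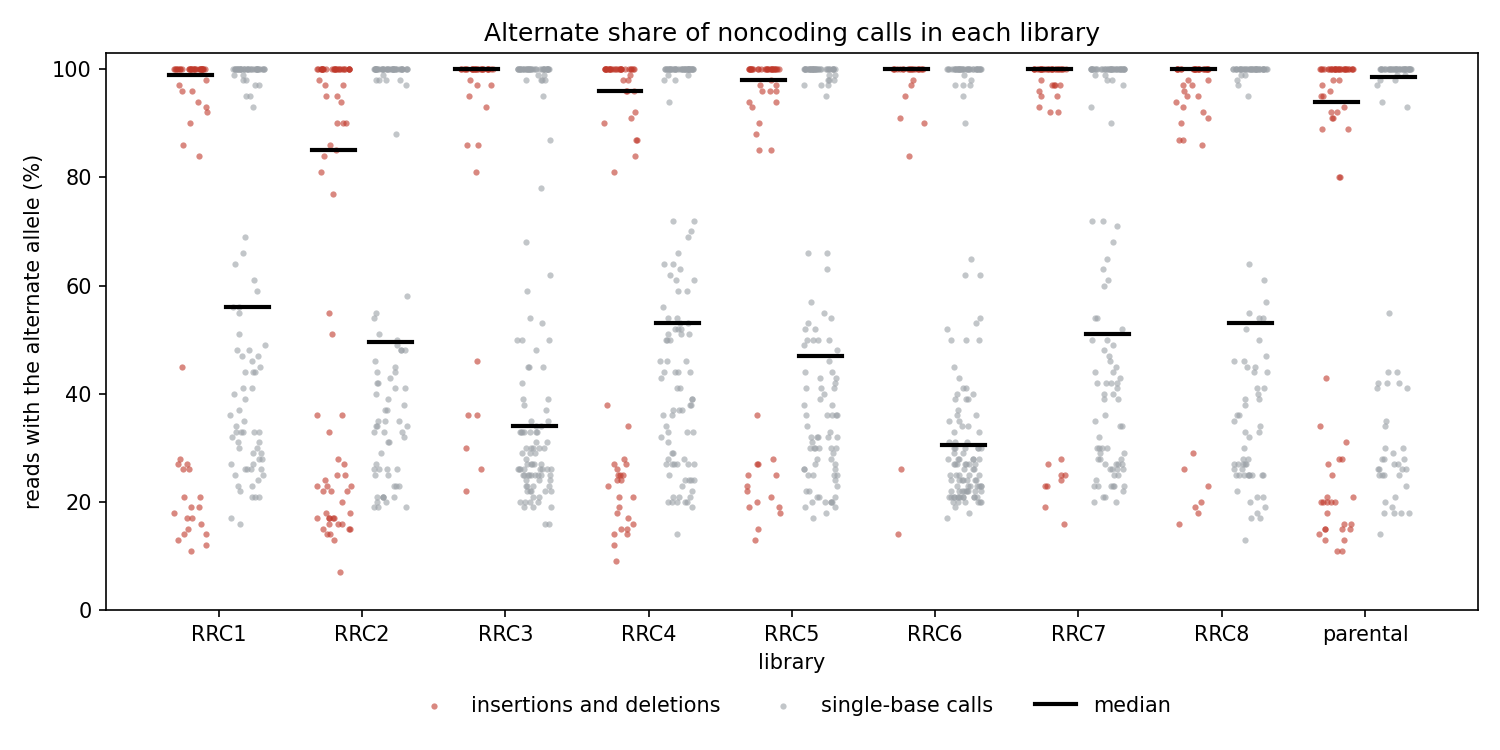
Percent of reads with the alternate allele (vertical axis) for every noncoding insertion or deletion (red, left) and every noncoding single-base call (grey, right) in each library, with black lines at the medians. Between 40 and 80% there are 6 insertions or deletions and 178 single-base calls.

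Calls classed as dinucleotide separated into a high and a low set that shared no position. Calls inside the same repeats that gained or lost other bases were classed as short or other and are left out of this split. At the CTF3 and NAM2 repeat, which is high, these include RRC2 calls at 33 and 55%. The high calls, 54 of the 188 dinucleotide calls, stood at 7 positions that recurred in 4 to 9 libraries. The low calls, 133 of them, stood at 71 positions, of which 37 were in 1 library and 5 in at least 4. The remaining call, in the parental library at the YBT1 and LDB18 repeat, had 43%. AT or TA was the unit of 87 of the 90 distinct dinucleotide calls, 49 as AT and 38 as TA.

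The 7 positions with high shares included tracts of 6 to 26 bases. At the TA repeat 46 bases downstream of TSR1, which encodes a factor of small-subunit ribosome assembly, a gain of 2 bases was read on 84, 90, 81, 84, 85, 84, 95 and 90% of reads in RRC1 to RRC8 and on 89% in the parental library. At the TA repeat 46 bases downstream of KOG1, which encodes a subunit of TOR complex 1, a loss of 2 bases was read on 100, 100, 93, 98, 100, 95, 97 and 100% in RRC1 to RRC8 and on 96% in the parental library. The mutant pools and the parental library overlapped at both repeats, and the TSR1 repeat was the lower of the pair in every library.

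At the AT repeat between the 3' ends of CTF3, a kinetochore protein gene, and NAM2, the mitochondrial leucyl-tRNA synthetase gene, a gain of 2 bases was read on 92% of reads in RRC1, on 86, 92, 96, 100, 95 and 100% in RRC3 to RRC8, and on 95% in the parental library. RRC2 did not have this call. It listed instead, inside the same repeat, a gain of 2 bases (TT) on 55% of 40 reads at position 881950 and a gain of 4 bases on 33% of 24 reads at position 881968. The other high positions, between PFF1 and ECM8 (a CT repeat) and between YNCH0002C and YHL009W-B in the R64 gene table, were at 100% in all 9 libraries. Between PRY2 and YPT52 a gain of 4 bases was written in 8 ways, as described further on.

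Low dinucleotide calls were in longer tracts. Their tracts ran over 17 to 41 bases, and their shares over 9 to 38% with a median of 20%. The following counts are of listings, so a position is counted again in each library that lists it. Among dinucleotide calls in tracts under 23 bases, 36 were high and 21 low. In tracts of 23 to 26 bases, 18 were high and 34 low, and those 18 came from the KOG1 and TSR1 repeats alone. All high listings together stood at 7 positions and the low ones at 71, so the counts do not give the proportion of sites. In tracts of 27 bases or more, 0 were high, 78 were low and 1 was in the middle. Of the low calls 88.7% were deletions (118 deletions and 15 insertions). The high dinucleotide calls were 33 deletions and 21 insertions, from the same 7 positions. Of the 138 homopolymer calls 137 were high, so the contrast in direction between the kinds also mixes low with high calls. Whether direction differs by kind at an equal share was not tested. The median score was 21.5 for low dinucleotide calls and 214 for high ones. The median depth was 44 reads in low calls and 50 reads in high calls.

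**Figure D3:**
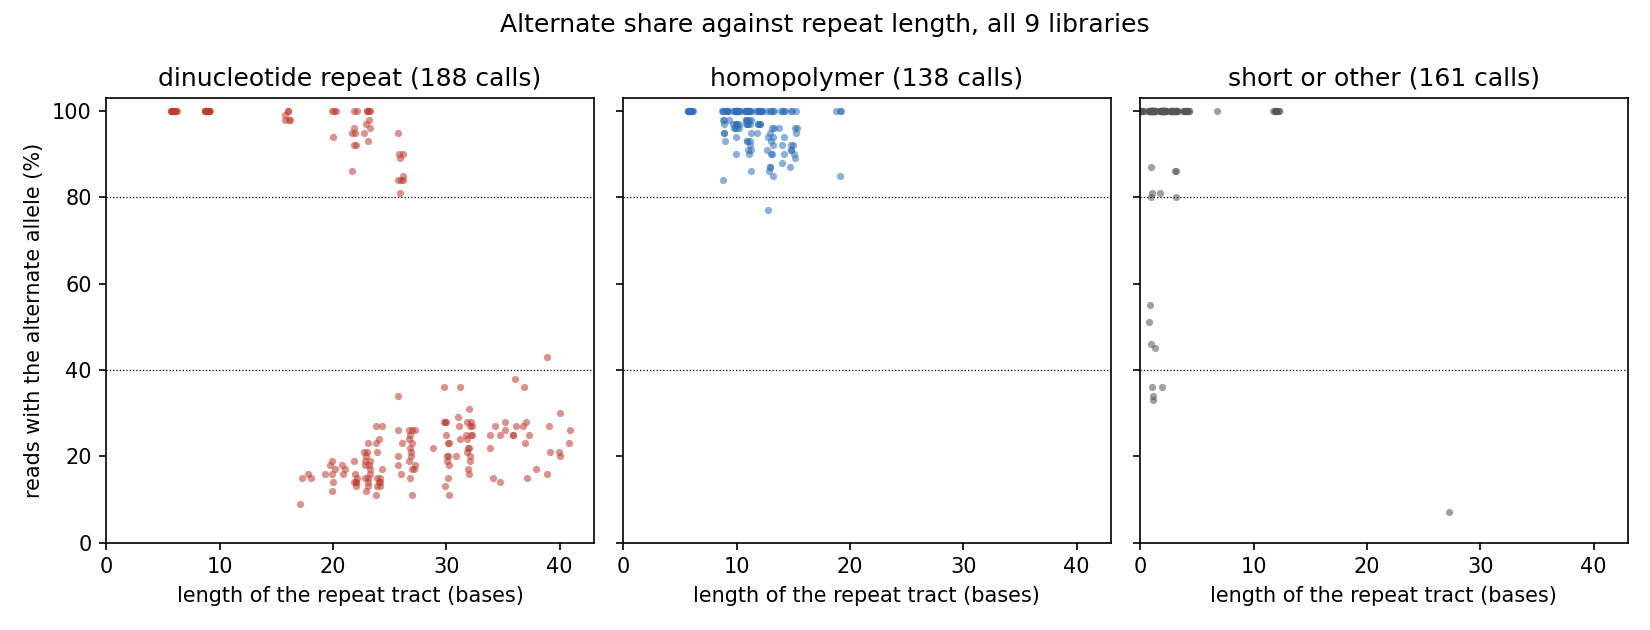
Percent of reads with the alternate allele (vertical axis) against the length of the repeat tract in bases (horizontal axis) for the 487 calls, 1 panel for each kind of site, with dotted lines at 40 and 80%. Dinucleotide calls in tracts of 27 bases or more all lie at 43% or lower, whereas homopolymer calls, in tracts of up to 19 bases, lie at 77% or higher.

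The most recurrent low position was the TA repeat 74 bases upstream of YDL241W, an open reading frame of unknown function. A loss of 2 bases was read there on 36, 25, 27, 28 and 23% of reads in RRC2, RRC4, RRC5, RRC7 and RRC8, and on 15% in the parental library. At the TA repeat between ENA1 and RSM10 a loss of 2 bases was read on 24, 36, 27 and 29% in RRC2, RRC3, RRC4 and RRC8, and a gain of 2 bases was read on 20% in the parental library. At the repeat downstream of AIF1, which encodes a mitochondrial cell death effector, a loss of 2 bases was read on 17, 22 and 26% in RRC1, RRC2 and RRC8, and on 18% in the parental library. All of these shares were at 36% or below, in mutant pools and in the parental library.

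At 9 of the 71 low positions, different libraries listed changes in opposite directions. Downstream of NOP2, the gene of a ribosomal RNA methyltransferase, a loss of 2 bases was read on 14% of 57 reads in RRC1 and 17% of 74 reads in RRC2, and a gain of 2 bases on 24% of 53 reads in RRC4. Downstream of NAN1, which encodes a component of the small-subunit processome, RRC2 and RRC5 had a loss of 2 bases on 15 and 20% of reads and RRC7 a gain of 2 bases on 23%. Downstream of PPZ1, a protein phosphatase gene, RRC1 and RRC5 had a gain of 2 bases on 19 and 25% of reads, and the parental library had a loss of 2 bases on 28%. The other 6 such positions lay downstream of CDC53, COG1, DMA1 and TYW1, between ENA1 and RSM10, and between YHR180W and YNCH0015W. At 5 of the 9 positions the parental library took part, and at the other 4 the opposite changes were both in mutant pools.

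The number of low calls varied among libraries. It was 19, 32, 5, 24, 15, 2, 9 and 7 in RRC1 to RRC8 and 25 in the parental library, while high calls numbered 40, 40, 35, 39, 40, 26, 39 and 40 in RRC1 to RRC8 and 44 in the parental library. RRC6 and RRC3, the libraries of lowest median depth (19 and 25.5 reads), had the fewest low calls, and RRC2 and RRC4, at 51 reads, had 32 and 24. Depth did not order them all, since RRC8 had 7 low calls at a median of 39 reads and the parental library 25 at 37 reads. The part of depth in these counts was not tested.

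**Figure D4:**
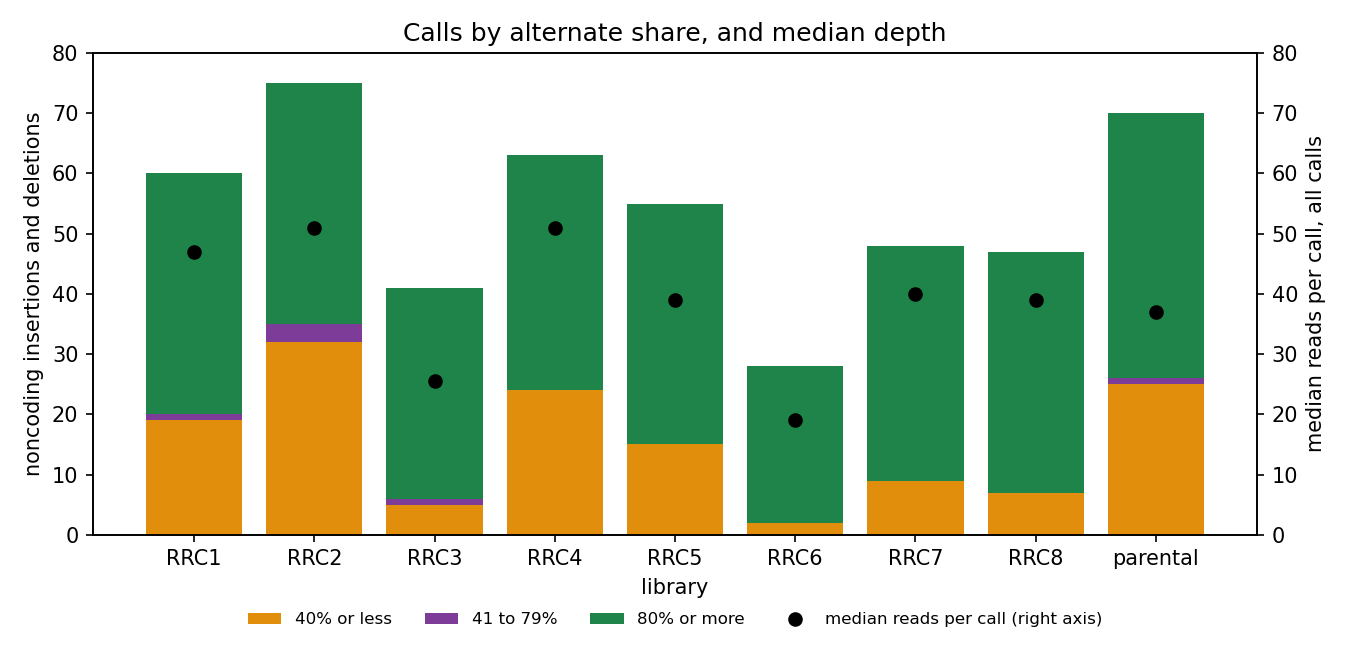
Number of noncoding insertions and deletions in each library (left axis), stacked by alternate share, with black points for the median reads per call over all calls of the library (right axis). High calls number 26 in RRC6 and 35 to 44 elsewhere, while low calls range over 2 to 32.

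Positions with dinucleotide changes lay more often beyond the ends of genes than before their starts. The lists name a gene upstream or downstream within 101 bases. Of the 78 dinucleotide positions, 42 were downstream of a gene only and 6 were upstream of a gene only. Of the 483 noncoding single-base positions, 72 were downstream only and 61 upstream only. The numbers were 6 and 5 for homopolymers and 6 and 5 for short or other sites. Taking calls with a gene on 1 side only, the downstream share averaged 84.2% for dinucleotide calls and 53.1% for single-base calls, a mean difference of 31.1 ± 5.73 percentage points (SD, n = 9 libraries). It was higher for dinucleotide calls in 9 of 9 libraries. This comparison was also made after the values had been seen, so no test is given.

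Homopolymer calls had high shares and many spellings. Of 138 calls at 23 positions, 137 were high, 1 was at 77% and 0 were low, and 65 were at 100%. The base was T in 33 distinct calls, A in 25 and C in 2, and tracts ran over 6 to 19 bases. Several alternate alleles were given in 43 of the 60 distinct calls, which is 43 of the 44 with several alternates among all 189. At such calls the lists give 1 percent for all alternates together, so the share of each length is unknown. The median share was 100% in tracts under 10 bases, 98% in tracts of 10 to 12 and 94% in tracts of 13 or more, with median scores of 45.5, 45.5 and 14.6.

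Differences in spelling decided which homopolymer calls matched between libraries. At 21 of the 23 positions more than 1 allele combination was written, up to 5 at a T tract between GAT1, a transcription factor gene of nitrogen metabolism, and PAU5. That tract was listed in all 9 libraries, at 96, 100, 100, 96, 100, 90, 100 and 97% of reads in RRC1 to RRC8 and 100% in the parental library. In all, 5 homopolymer positions were listed in 9 libraries and 4 in 8. A gain of T in the tract of 6 bases between OCA1 and RAS2 was at 100% in all 9 libraries under 1 spelling.

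Short or other sites had the highest median score of the 3 kinds (214, which the high dinucleotide calls equalled) and the smallest share of calls absent from the parental list. Of 161 calls, 152 were high, 4 were in the middle and 5 were low, and 145 were at 100%. In the mutant pools 30 of 142 such calls (21.1%) were absent from the parental list by exact match, against 89 of 157 dinucleotide calls (56.7%) and 77 of 118 homopolymer calls (65.3%). Over all kinds the absent share averaged 44.9% for insertions and deletions and 46.5% for noncoding single-base calls, a difference of -1.53 ± 18.0 percentage points (SD, n = 8 pools, two-sided exact sign-flip permutation test p = 0.859). Without RRC6 the difference was 2.25 points (exact p = 0.656), and with at least 20 reads it was 1.95 points (exact p = 0.695). Counting as absent only positions with no parental call of any allele, the difference was -20.9 points (exact p = 0.0156). All 8 pools were compared with the same parental list and share calls with each other. The p-values treat them as independent and carry that limit.

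Transfer RNA genes held 3 distinct calls, 2 of which lay 3 bases apart in the same gene. In tS(AGA)D3, a serine transfer RNA gene on chromosome 4, all 8 mutant pools listed the loss of a G at position 1305680 on 100% of 67, 74, 64, 70, 53, 45, 67 and 64 reads in RRC1 to RRC8. The parental library listed the loss of a T at position 1305677 on 100% of 60 reads. The alleles, over 6 bases of the reference with the lost base in capitals where the lists place it, were
mutant pools, chr4:1305680-1305682: tGg
parental library, chr4:1305677-1305680: cTtt
Each library was at 100% and no library listed both changes, which would leave ctttg in the mutant pools and cttgg in the parental library in place of the reference ctttgg. Both sequences apply the listed loss alone, without any single-base call nearby. The tS(AGA)D3 locus was the only one at which all 8 mutant pools had 1 spelling at 100% and the parental library another. The third call, a gain of C in the serine gene tS(GCU)L on chromosome 12 at position 784382, was at 100% in all 9 libraries.

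Other recurrent loci had a change in every library, with different spellings in some. Each sequence given for these loci is the reference with 1 listed insertion or deletion applied alone. Single-base calls in the window were not applied, so whether the libraries differ in sequence was not tested. Downstream of RPS8A a loss of 5 bases was at 100% in all 9 libraries. Applied alone over the window chr2:88481-88496, the RRC7 call and the call of the other libraries leave different sequences.
reference: tgaggagaagagaaga
RRC7: tgaagagaaga
other 8 libraries: tgaggagaaga
Between PRY2 and YPT52 a gain of 4 bases over chr11:465172-465209 was at 80 to 100% in 9 of 9 libraries and took 8 spellings, which give 7 different sequences.
reference: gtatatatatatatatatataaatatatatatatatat
RRC3, RRC5, RRC6 and RRC7: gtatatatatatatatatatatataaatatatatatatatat
RRC1: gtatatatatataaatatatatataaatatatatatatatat
RRC4: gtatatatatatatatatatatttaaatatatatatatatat
RRC2 and RRC8: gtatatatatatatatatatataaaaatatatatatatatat
The RRC3 call also listed a shorter gain as a second alternate, so its share is pooled over both lengths and that of the 4-base gain is unknown. RRC8 and the parental library each listed a second gain of 4 bases in this window, at another position. The shares were 86 and 87% in RRC8, and 80% for both gains in the parental library. The sequence printed for RRC8 holds only 1 of its gains, so it is not the sequence that both calls would leave. None is printed for the parental library. Whether both gains lie on the same reads was not tested. Between MST27 and YNCG0017W RRC6, RRC7 and RRC8 listed the loss of a C and the other 6 libraries the loss of a G, at 100% throughout. Applied alone, these leave different sequences (agg and acg). At 2 loci the spellings gave the same sequence: the gain between TDA8 and YAL064W in RRC8, and the gain near YNL337W in RRC3 and RRC5. In all, 40 of the 123 loci had several spellings, and of the 22 loci listed in all 9 libraries 12 did.

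**Figure D5:**
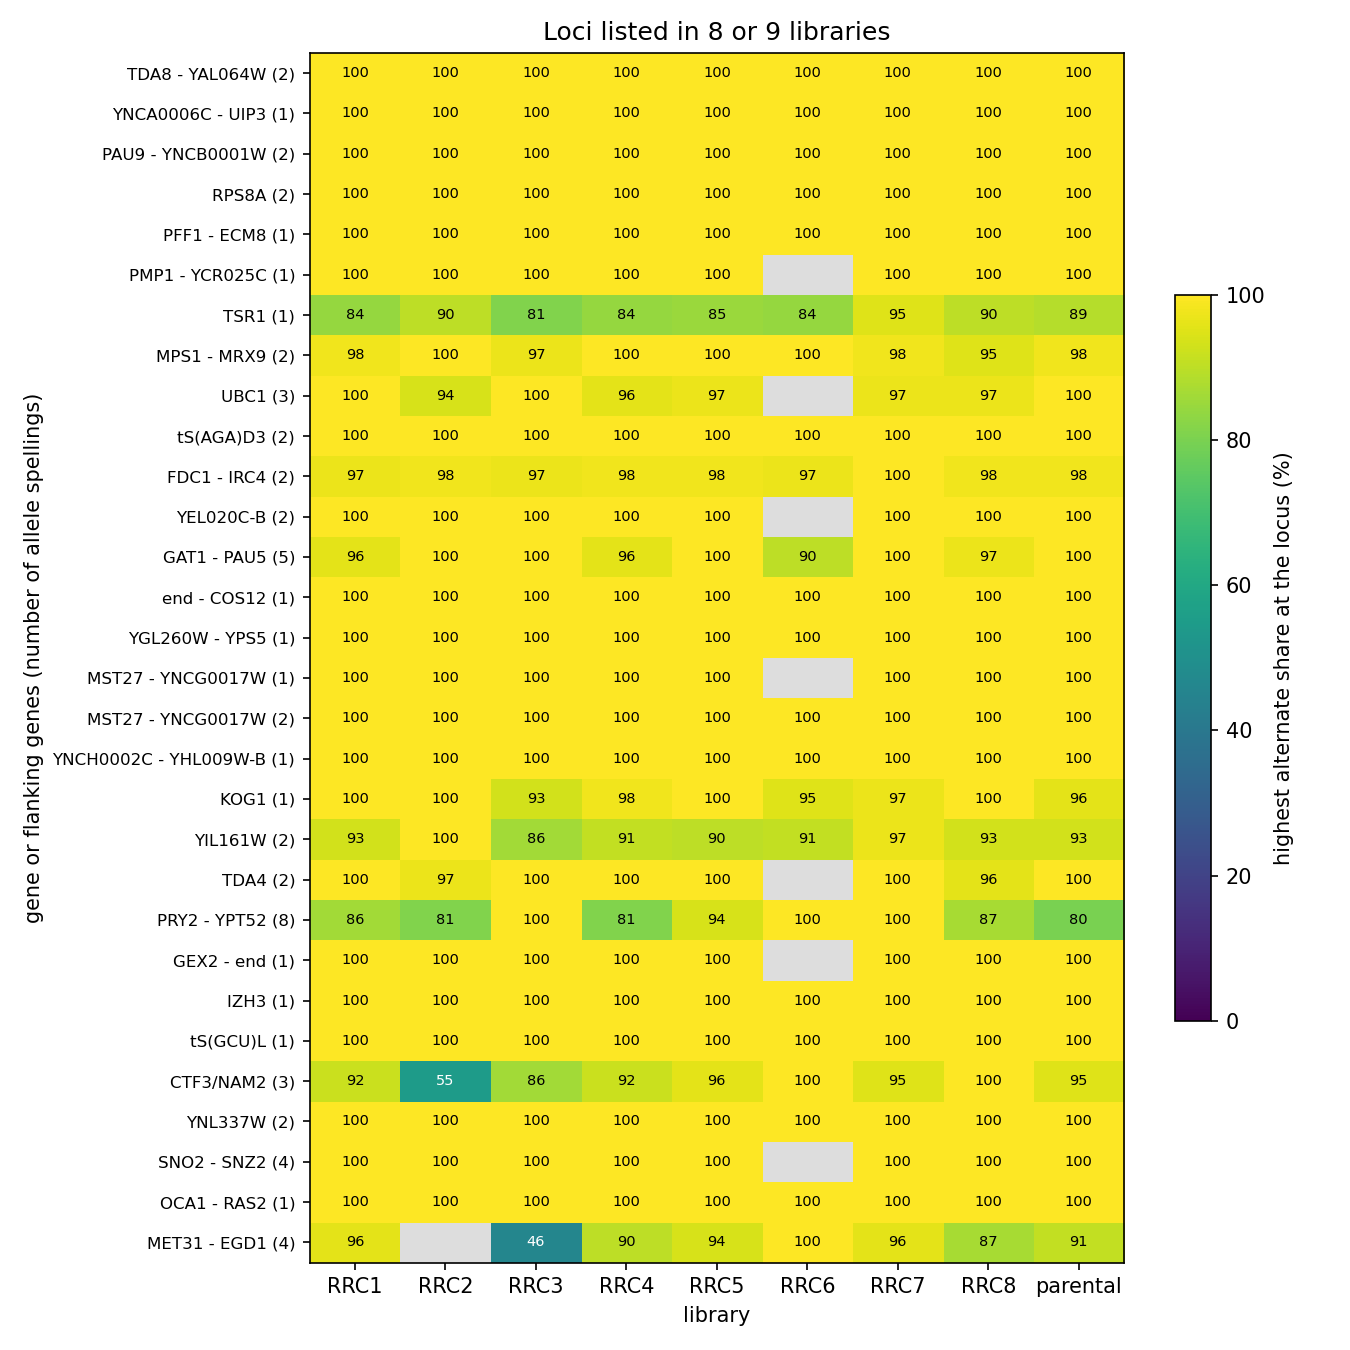
Highest alternate share (percent, colour and number) at each of the 30 loci listed in 8 or 9 libraries, with libraries across and loci down, named by gene or by flanking genes, the number of spellings in brackets and grey where a library has no call. At 28 of the 30 loci the lowest share of any call was 80% or more, and the exceptions are CTF3 with NAM2 in RRC2 and MET31 with EGD1 in RRC3.

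Among calls listed with the same position and alleles in a mutant pool and the parental library, no noncoding insertion or deletion differed in share after adjustment. The 196 listings absent from the parental list were outside this test. The two-sided Fisher exact test, with Benjamini-Hochberg adjustment over calls of every kind, called 12 of 1860 comparisons (0.645%). Among the 219 comparisons of 50 noncoding insertions and deletions it called 0, which is near that percentage, and 1 had an unadjusted p under 0.05. In 143 of the 219 the mutant pool and the parental library were both at 100%, and in 206 they lay within 10 percentage points. The largest difference was 27 points. It was at the AT repeat downstream of YBT1, a vacuolar transporter gene, and LDB18, a dynactin subunit gene, where the loss of 2 bases was read on 16% of 36 reads in RRC8 and on 43% of 32 reads in the parental library (exact Fisher p = 0.018, adjusted p = 1). RRC2 had 27% of 43 reads and RRC4 21% of 38 reads there, both also below the parental library.

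Near-fixed calls absent from the parental list were then counted. A call was near-fixed with a share of at least 90% and an adjusted p under 0.05 in the exact binomial test against 0.5. Of the 1350 calls of every kind that the parental list lacked by exact match, 200 were near-fixed (14.8%). Noncoding insertions and deletions supplied 94 of 196 (48.0%), and noncoding single-base calls 5 of 445. The 94 comprised 68 homopolymer calls, 10 dinucleotide calls and 16 others, with 12, 11, 7, 13, 15, 8, 15 and 13 in RRC1 to RRC8. At 66 of the 94, however, the parental list had a call of another allele at the same position, and 17 more had a parental call within the same locus, 8 of them the tS(AGA)D3 change. With no parental call at the position 28 were near-fixed, where the percentage over calls of every kind was 4.09, and with none within 5 bases 11 were, where it was 2.14.

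Of those 11 calls, 6 were the loss of an AT pair 22 bases upstream of LEU2, which encodes the isopropylmalate dehydrogenase of leucine synthesis and is a common selection marker. It was read on 174 of 174 reads in RRC1 (100%, exact Clopper-Pearson 95% interval 97.9 to 100%), 98% of 145 reads in RRC3, 99% of 172 in RRC4, 100% of 161 in RRC5, 98% of 123 in RRC6 and 98% of 153 in RRC8. RRC2, RRC7 and the parental library had no call there. Strains of the BY4741 background carry a deletion of LEU2, and a position without a call has no depth in the lists. Absence of the change and absence of reads therefore cannot be told apart in those 3 libraries. The depth at these 6 calls, 123 to 174 reads, was above that of all other noncoding insertions and deletions.

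The other 5 calls were in homopolymers, had scores of 4.41 to 14.6 and had a gain of 1 base as the first alternate allele. All but the ALT2 call also hold other lengths, in RRC4 a loss of 1 base, so their shares are pooled over alternates. They comprised an A tract downstream of SRB6, a Mediator subunit gene, and TRS20, a TRAPP subunit gene, on 100% of 20 reads in RRC4, 96% of 27 in RRC5 and 91% of 24 in RRC8. The remaining pair were a T tract 3 bases downstream of ALT2, an alanine transaminase homologue, on 100% of 14 reads in RRC3, and a T tract between IRC4 and YDR541C on 100% of 11 reads in RRC6. The last tract was also listed in RRC2, at 86% of 36 reads.

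Shares in the middle, where an unlinked allele from 1 parent of the cross would lie, were few. At short or other sites 9 calls were below 80%, 4 of them in the middle and 5 low. Among these 9 calls, 2 had scores over 200, were in 1 library and had no other call at the locus. Upstream of HNT3, which encodes a DNA repair hydrolase of the aprataxin family, the loss of a G 58 bases from the gene (chr15:811612-811613, aG) was read on 38 of 74 reads in RRC2, which is 51% (exact 95% interval 39.4 to 63.1%). Upstream of BUL1, which encodes an adaptor of the ubiquitin ligase Rsp5, the loss of a C 99 bases from the gene (chr13:818679-818680, aC) was read on 22 of 63 reads in RRC4, which is 34% (23.3 to 48.0%). Against 50%, the exact binomial test gave an adjusted p = 0.964 for HNT3 and 0.0565 for BUL1, each adjusted over all calls of its pool that the parental list lacks. The BUL1 share is low by the split used here, and its interval lies below 50%. No other library listed either change.

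The other 7 of these 9 calls were each tied to a repeat or rested on few reads. CTF3 in RRC2 gave 2 of them, as above. Upstream of PCL6, a cyclin gene, downstream of ERR3, an enolase-related gene, and between MET31 and EGD1, the lost base was a G that follows a T tract. It was read on 45% of 11 reads in RRC1, 36% of 11 in RRC2 and 46% of 13 in RRC3. Other libraries listed the loss of a T in the same 3 tracts at 87 to 100%. The last pair were 36% of 11 reads in RRC5 between SDS23 and OLE1 and 7% of 67 reads in RRC2 in a TAT repeat between NCE102 and SUE1.

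The genes the study is about were then examined. None of the 189 distinct calls was assigned to a gene of 4 lists, against 2 of 488 distinct noncoding single-base calls (0.41%) and 14 of 1507 distinct calls of every kind (0.929%). The count of 0 is near both shares and is not read as a result about these calls. The lists were the upstream activating factor of RNA polymerase I (8 genes, histones H3 and H4 included), its initiation factors (5), ribosomal DNA silencing and stability (14) and genes with near-fixed coding changes in these pools (5). Within 50 kb of the near-fixed coding change of the same pool lay 2 of the 417 listings in the mutant pools (0.48%), against 9 of 934 noncoding single-base listings (0.964%) and 15 of 3243 of every kind (0.463%). RRC2 had 1 noncoding insertion or deletion there, 49.5 kb from RRN10, at 100% of 17 reads and also in the parental list. RRC6 had 1, in the T tract between GAT1 and PAU5, 11 kb from IES1, at 90% of 11 reads, where the parental list has another allele. The pools RRC1, RRC3, RRC4, RRC5, RRC7 and RRC8 had 0 in the windows around RRN9, RRN5, CHD1, UAF30, UBP3 and YNG2.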

How the data were processed

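Genomic DNA of 9 libraries was sheared, amplified by 3 PCR cycles and sequenced in paired-end MiSeq runs, per the labels' protocols. The authors deposited 17 lists of called variants, 9 full ones, analysed here, and 8 shortened ones, tried as an alternative. Values of a call are, per the file headers, a score under the heading MapQ, a read count for depth and a percent for the alternate reads. The submitters' processing notes name SAMtools 0.1.19, Bowtie 1.0.0 and MACS2 for 5 of the 9 libraries, without roles. Neither the caller nor the build is given in the sources used here. The 16 chromatin immunoprecipitation samples of the series were not analysed here.

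The deposited percent is rounded down (4267 of 4267 calls with up to 100 reads match that, and 3344 match rounding to nearest), so alternate reads were taken as the fewest that give it, which is a lower bound above 100 reads (6 of the 487 calls). Length change, repeat unit and tract come from the first alternate allele, and the tract is counted within the deposited reference allele. Fisher tests took calls with the same position and alleles in a mutant pool and the parental list, adjusted by Benjamini-Hochberg over all kinds and pools, and binomial tests were adjusted over the calls of each pool that the parental list lacks. Library differences were tested by exact sign flips, which treat the libraries as independent although they share many calls. The Fisher test was tried on simulated reads and the sign flip on equal positive values, while the binomial test was not tried in this way. Intervals are exact (Clopper-Pearson, 95%) and cover counting error only, since amplified reads are not independent molecules. Intergenic calls were named by their neighbours in the R64 RefSeq gene table, used for names only (274 of 274 single-base calls whose gene is in the table lay within 1 base of the listed distance to its end). Named calls follow a rule: near-fixed calls without a parental call at the position, calls in all 9 lists, the longest changes, the most alternates, genes of the 4 lists, calls within 50 kb of a coding change and the smallest Fisher p. The low-share repeats and the HNT3, BUL1 and transfer RNA sites were picked with their values in view. The members, lists, kinds and tests were all chosen with earlier results of these data known. Alternatives covered depth, score, the matching rule, alleles and left-out libraries. Python 3.11.15, NumPy 2.4.6, pandas 2.3.3, SciPy 1.17.1 and matplotlib 3.10.9 were used.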

Additional observations from a re-analysis of the deposited data

How the results depend on the processing

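No paired analysis was possible because each pool is 1 library and no groups share replicate numbers; the paired differences given compare kinds of call within a library. The 189 distinct calls were 86 with a call score of at least 50 and 123 once positions within 20 bases were joined. The 94 near-fixed calls were 46 with a score of at least 50, 28 where the parental list has nothing at the position, 11 where it has nothing within 5 bases, and 6 with that distance and a score of at least 50, all at LEU2. The share absent from the parental list, insertions and deletions minus single-base calls, was 1.95 points with at least 20 reads (exact p = 0.695), 2.25 points without RRC6 (exact p = 0.656) and -20.9 points by position alone (exact p = 0.0156). The deletion share minus 50% was 8.66 points with at least 20 reads (exact p = 0.0039), -2.14 points with a score of at least 50 (exact p = 0.25) and 8.98 points with calls of 1 alternate allele (exact p = 0.0117). These p-values treat libraries as independent, although they share many calls. The cause of these shifts was not tested. The other 40 results under an alternative were counted as unchanged. Those that are differences kept their direction and their side of the threshold. Those that are counts could still shift. With at least 20 reads the 189 distinct calls were 162 and the 94 near-fixed calls were 69. Among the members that could be compared, the count of 0 that differ in share from the parental list held under each alternative tried for it. The join by 20 bases, the trimming of shared bases, the combined distance and score rule, the fits without the parental library and the comparisons of the middle range, of direction by kind of repeat and of downstream position were chosen after seeing the data. The median depth was 39 reads.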
